A study of Mus musculus with 2 samples.

Results

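The Chil3-high classical monocytes of MC38 tumors were 953 of the 11481 barcodes, of any cell type, that passed the quality limits. These members were 592 of 5873 in the ketogenic diet library and 361 of 5608 in the normal diet library. They were chosen by gene counts. A barcode needed at least 500 unique molecular identifiers (UMIs, each standing for 1 captured RNA molecule), at least 300 genes and at most 10% of UMIs from mitochondrially encoded genes. It also needed at least 5 UMIs of Chil3 and at least 3 of Lyz2, fewer than 2 of Arg1, at most 2 of C1qa, C1qb and C1qc together, none of Cd209a, at most 1 of Cd3d, Cd3e, Cd3g, Ncr1, Klrb1c and Klre1 together, and fewer than 10 of S100a8 and S100a9 together. The levels of these genes are therefore a description of the rule and not a result.

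MC38, a mouse colon adenocarcinoma line, was grown under the skin of the right flank of female C57BL/6J mice aged 6 to 8 weeks. Mice of the ketogenic group were fed a ketogenic diet, low in carbohydrate and rich in fat, from day 4, and mice of the other group a normal diet. Tumors were taken on day 14, dead cells were removed and CD45-positive leukocytes were enriched with magnetic beads for Chromium 3′ libraries. Each diet has 1 library that pools 5 mice and no barcode carries a mark of its mouse, so diet and library cannot be told apart, no test between diets is possible, and every interval below covers counting error only.

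Classical monocytes leave the bone marrow, circulate and enter inflamed tissue through the chemokine receptor CCR2. In mice they carry high Ly6C, and in tumors they are a source of macrophages and of suppressive myeloid cells. Chil3 encodes the chitinase-like protein Ym1, which is abundant in a granule-rich state of monocytes in the mouse and also in neutrophils and some macrophages. Type I interferon induces a large set of antiviral genes in these cells, and bacterial products or damaged tissue induce chemokines and interleukin 1 through NF-κB.

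Before the levels are given, 14 of the members have to be set apart. Of the ketogenic members, 13 held at least 3 UMIs of a list of 15 tumor and stromal markers, against 1 normal member. These 13 barcodes held between 8973 and 92454 UMIs (median 34100), while the other 579 ketogenic members had a median of 3361 and a maximum of 13729 UMIs. They supplied 545116 of the 2657251 UMIs of the ketogenic members (20.5%), whereas the 1 normal barcode supplied 9752 of 1408442 UMIs (0.692%). In CPM (UMIs of a gene for every 1000000 UMIs of the summed barcodes), Rhox5, a homeobox gene active in many mouse tumor lines, stood at 1007 CPM in the 13 barcodes and 1.89 CPM in the other ketogenic members. Chil3 stood at 379.7 CPM in the 13 barcodes and 4736 CPM in the others, and the proliferation gene Top2a at 341 and 3.31 CPM. Summed, the 13 barcodes thus held RNA of tumor-type cells together with RNA of monocyte genes. The barcodes of 8973 and 14372 UMIs held only 3 marker UMIs each, while the others held 57 to 304, so the sum does not describe each barcode. Ketogenic barcodes of at most 100 UMIs, taken as free RNA, held 632.8 CPM of Chil3. Hp, Ly6c2 and Lyz2 also stood lower in the 13 barcodes than in free RNA (Lyz2 at 1589 against 3650 CPM). Fn1 stood higher, at 356 against 143 CPM. The source of the monocyte RNA was not tested, and no doublet caller was run. Unless all members are named, levels below are of the 579 ketogenic and 360 normal members without these barcodes, a choice made after the data had been seen, and the log2 ratio over all members is given in brackets beside the main diet differences.

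**Figure D1:**
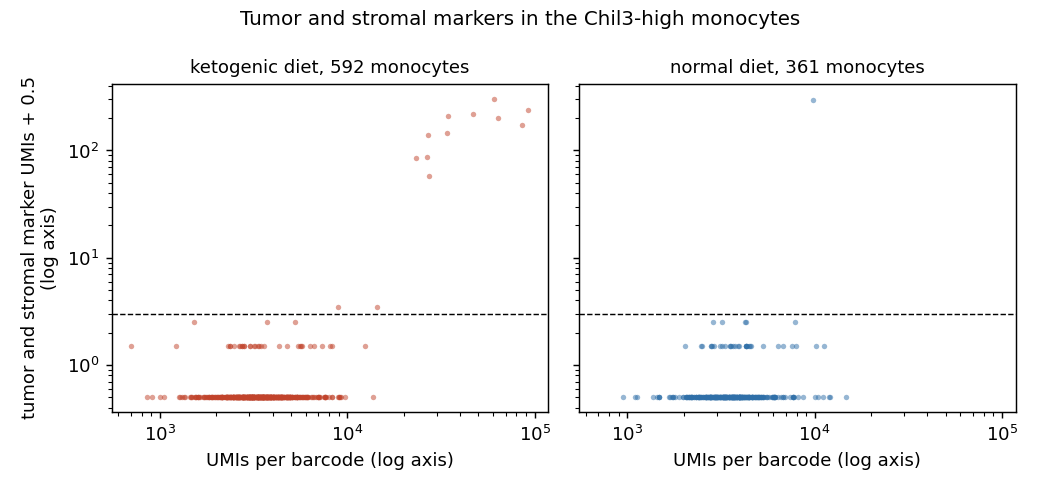
Summed UMIs of the 15 tumor and stromal markers (0.5 added, log axis) against the UMIs of each barcode (log axis), 1 point per monocyte, with the ketogenic library left of the normal one. The 13 ketogenic barcodes with at least 3 marker UMIs lie toward the high-UMI end, at 8973 to 92454 UMIs, and the normal library has 1 such barcode.

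The label held against its markers. Besides the gate gene Chil3, which stood at 4736 CPM in ketogenic and 3407 CPM in normal members, all 4 other markers of the label were present. Ly6c2, the gene of the Ly6C antigen, stood at 3391 CPM (3313 to 3470) in ketogenic and 3974 CPM (3871 to 4080) in normal members, a log2 ratio of -0.23 (-0.50 over all members), which turned to 0.02 with at least 10 Chil3 UMIs. The extracellular matrix genes Fn1 (808 CPM in ketogenic and 790.0 CPM in normal members) and Vcan (470.1 CPM in ketogenic and 434 CPM in normal members) were close between the diets. Hp, which encodes haptoglobin, the plasma protein that binds free haemoglobin, stood at 930.3 CPM (889.7 to 972) in ketogenic and 623 CPM (583 to 666) in normal members. Its log2 ratio was 0.56, and 0.29 over all members. In all other barcodes that passed the quality limits, Hp stood at 108.8 CPM in the ketogenic and 70.1 CPM in the normal library. In free RNA it stood at 143.9 CPM in the ketogenic and 73.7 CPM in the normal library. The monocyte homing gene Ccr2 (570.5 CPM in ketogenic and 685 CPM in normal members) and the monocyte gene Plac8 (7212 CPM in ketogenic and 7029 CPM in normal members) were also detected. Ly6c2 and Plac8 were not confined to the members. In all other barcodes Ly6c2 stood at 1284 CPM in the ketogenic and 2121 CPM in the normal library. Plac8 stood there at 2304 CPM in the ketogenic and 2550 CPM in the normal library. In free RNA Ly6c2 stood at 1710 and 2263 CPM and Plac8 at 2817 and 2796 CPM, ketogenic first.

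Most markers of other cells were low. Ly6g, the defining neutrophil antigen, had 1 UMI in ketogenic and none in normal members, and 8 neutrophil markers, S100a8 and S100a9 of the rule included, summed to 167 CPM in ketogenic and 145 CPM in normal members. Among 8 genes of granule-forming progenitors, Ms4a3, Camp, Ltf and Ngp were at 0 in both libraries, and the 8 summed to 23.2 CPM in ketogenic and 21.5 CPM in normal members. All 4 mast cell and basophil markers were at 0. The macrophage mannose receptor gene Mrc1 had 9 UMIs in ketogenic and 15 in normal members. The 9 macrophage markers, C1qa, C1qb, C1qc and Arg1 of the rule included, summed to 1154 CPM in ketogenic and 1279 CPM in normal members. Most of this sum was Apoe, at 916 CPM in ketogenic and 929 CPM in normal members. Some nonclassical monocyte genes were present: Nr4a1, a transcription factor that those cells need, stood at 411 CPM in ketogenic and 355 CPM in normal members, and Treml4 at 37.9 CPM in each. The 7 nonclassical monocyte markers were not low, and summed to 955 CPM in ketogenic and 920 CPM in normal members. In all other barcodes they summed to 395 CPM in the ketogenic and 462 CPM in the normal library. The 11 NK and T cell markers, 5 of which have a limit in the rule, summed to 126 CPM in ketogenic and 126.5 CPM in normal members, and 5 B cell markers to 79.5 CPM in ketogenic and 99.4 CPM in normal members.

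**Figure D2:**
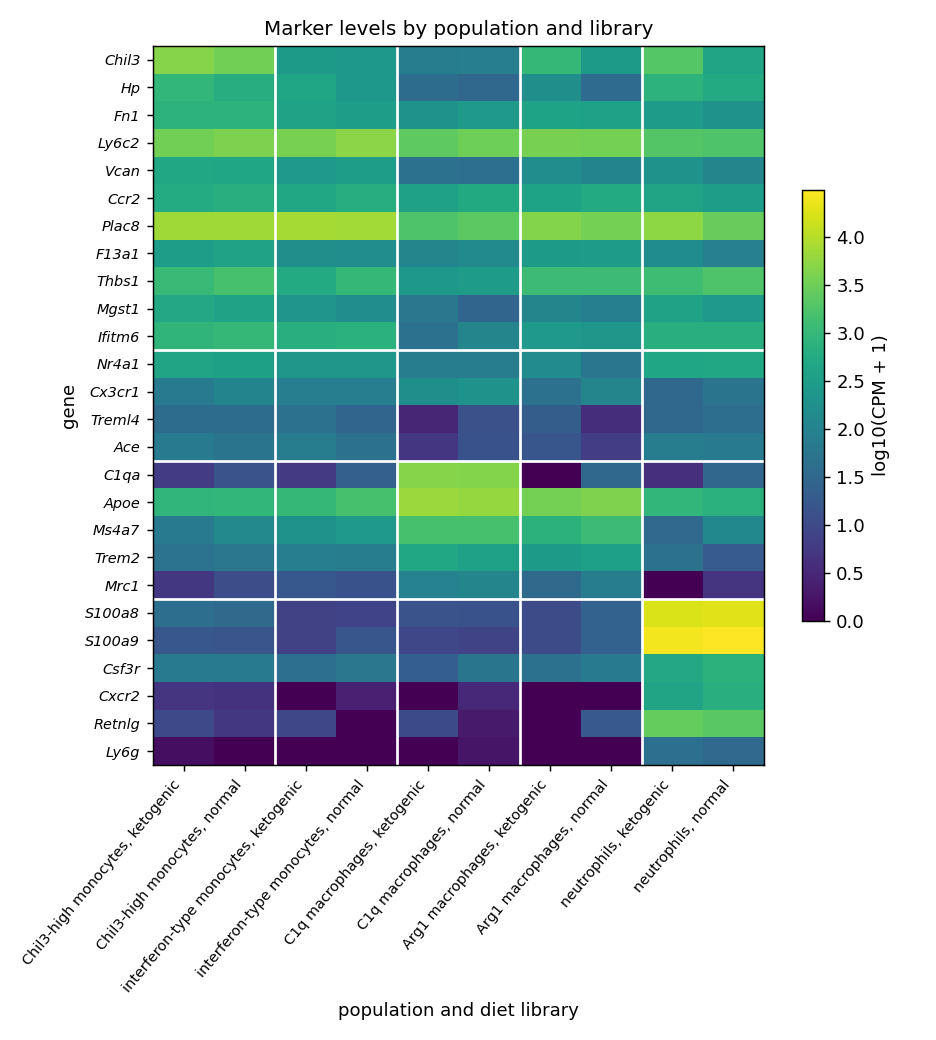
Levels of marker genes (rows, colour as log10 of CPM + 1) in the Chil3-high monocytes and the populations they are set against, with the ketogenic library left of the normal one for each population. Hp stands at 930.3 CPM in the ketogenic and 623 CPM in the normal Chil3-high monocytes, and at 37.6 CPM in ketogenic and 32.3 CPM in normal C1q macrophages.

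Many barcodes lay near the limits. Chil3 ranged from 5 to 75 UMIs per member (median 14) in the ketogenic library and from 5 to 66 UMIs (median 10) in the normal library. With 5 or 6 Chil3 UMIs, 87 ketogenic and 76 normal barcodes were just inside, while 87 ketogenic and 125 normal barcodes that met every other limit were just outside with 3 or 4. Of the limit on lymphocyte genes, 57 ketogenic and 34 normal members were just inside with 1 UMI, and 24 ketogenic and 11 normal barcodes just outside with 2 or 3. No member barcode occurred in both libraries, although 7 barcodes did among all that passed the quality limits. Median depth was 3374 UMIs and 1363 genes in ketogenic members and 3596 UMIs and 1484 genes in normal members, below the 3983 UMIs in ketogenic and 4226 UMIs in normal barcodes overall.

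The members made up 10.1% (9.32 to 10.9%, Clopper-Pearson interval of 95%) of ketogenic and 6.44% (5.81 to 7.11%) of normal barcodes, a ratio of 1.57 (1.38 to 1.78). The interferon-type monocytes, defined by at least 5 UMIs of Cxcl10 and fewer than 5 of Chil3, went the other way, at 3.29% (193 barcodes) in the ketogenic and 6.19% (347 barcodes) in the normal library. Macrophages with at least 10 UMIs of C1qa, C1qb and C1qc and fewer than 5 of Chil3 stood at 3.32% in the ketogenic and 8.52% in the normal library. Of the Chil3-high and interferon-type monocytes together, the Chil3-high ones were 75.4% (72.3 to 78.4%) in the ketogenic and 51.0% (47.2 to 54.7%) in the normal library. The ratio of shares moved with the Chil3 limit, which also divides these 2 kinds of monocyte: its log2 value was 0.65 at 5 UMIs, 0.42 at 3 and 1.05 at 10. Chil3 itself had the higher CPM in ketogenic members, so a change in cell number and a change in Chil3 per cell cannot be told apart in this share. Free RNA differed as well: in barcodes of at most 100 UMIs, Chil3 stood at 632.8 CPM in the ketogenic and 229.1 CPM in the normal library. The part of free Chil3 RNA in the share was not tested.

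Against the interferon-type monocytes (181 ketogenic and 330 normal barcodes, without those rich in tumor markers), the Chil3-high members had more Hp, Fn1 and Mgst1 RNA and less RNA of MHC class II genes. These contrasts follow from the gates on Chil3 and Cxcl10 and are given as a description. Of 4719 genes with at least 50 UMIs over both populations in each library, 4 were at least 2-fold higher in the members in both libraries (0.0848%) and 21 at least 2-fold lower (0.445%), with 20 CPM added before each ratio. Under other settings these counts ranged from 0 to 30 higher and from 8 to 107 lower, with 30 and 107 once members of 2 or more Cxcl10 UMIs were left out. Of 24 measured classical monocyte genes 3 were 2-fold higher, with list medians of 0.27 on the log2 scale in the ketogenic and 0.26 in the normal library, and of 24 MHC class I genes 1 was 2-fold lower. The 4 were Hp, Fn1, Mgst1, which encodes a microsomal glutathione transferase, and Add3, which encodes a cytoskeletal adducin. Hp stood at 930.3 CPM in members and 435 CPM in interferon-type monocytes of the ketogenic library, and at 623 CPM in members and 247 CPM in interferon-type monocytes of the normal library. Fn1 stood at 808 CPM in members against 380.1 CPM in the ketogenic library, and at 790.0 CPM in members against 319.9 CPM in the normal library. F13a1, the gene of the coagulation factor XIII A chain, had log2 ratios of 0.92 in the ketogenic and 1.18 in the normal library.

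On the lower side, 4 of 6 measured MHC class II genes, which present peptides to CD4 T cells, were at least 2-fold lower in the members. Cd74, the invariant chain, stood at 807 CPM in members and 3294 CPM in interferon-type monocytes of the ketogenic library, and at 963 CPM in members and 3055 CPM in interferon-type monocytes of the normal library. The chemokine genes Ccl12 and Ccl5 were lower too: Ccl5 stood at 367 CPM in members against 874 CPM in the ketogenic library, and at 540.5 CPM in members against 1775 CPM in the normal library. None of the 52 measured type I interferon genes was 2-fold lower, although the list's median log2 ratio was -0.45 in the ketogenic and -0.43 in the normal library. Cxcl10, the gene that defined the interferon-type monocytes, was abundant in the Chil3-high members too, at 3443 CPM in ketogenic and 3787 CPM in normal members.

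The distance to the C1q macrophages (192 ketogenic and 469 normal barcodes) was wider. Of 5455 genes, 129 were at least 2-fold higher in the members in both libraries (2.36%) and 142 at least 2-fold lower (2.6%). Of 24 measured classical monocyte genes 15 were higher, with list medians of 1.55 on the log2 scale in the ketogenic and 1.46 in the normal library. Hp had log2 ratios of 4.04 in the ketogenic and 3.62 in the normal library, and Ifitm6, a myeloid member of the interferon-induced membrane protein family, had 3.72 in the ketogenic and 2.94 in the normal library. Slpi, a secreted inhibitor of neutrophil proteases, stood at 968 CPM in members against 126 CPM in macrophages of the ketogenic library, and at 588 CPM in members against 53.8 CPM in macrophages of the normal library. Of 24 measured macrophage maturation genes, 21 were lower in the members. Apoe, the lipid carrier of resident and recruited macrophages, stood at 916 CPM in members and 6562 CPM in macrophages of the ketogenic library, and at 929 CPM in members and 6065 CPM in macrophages of the normal library. Pf4 had log2 ratios of -4.42 in the ketogenic and -4.19 in the normal library, and Ms4a7, a membrane gene of macrophages, -4.02 in the ketogenic and -3.38 in the normal library.

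The members were also set against each other by their own Chil3 share of UMIs, a value the rule used, so these contrasts are a description. A member of low Chil3 share could pass the Chil3 limit only with more UMIs. The 144 ketogenic and 90 normal members with the highest Chil3 share of UMIs stood at 9969 CPM of Chil3 in the ketogenic and 7572 CPM in the normal library, against 1771 CPM in the ketogenic and 1365 CPM in the normal library for equal numbers with the lowest share. Of 2229 genes with at least 50 UMIs over both sets in each library, none was at least 2-fold higher in the Chil3-highest members in both libraries (0.0%) and 15 were at least 2-fold lower (0.673%). Hp came nearest, at 1393 CPM in the Chil3-highest and 693 CPM in the Chil3-lowest members of the ketogenic library, and at 899.8 CPM in the highest and 442 CPM in the lowest of the normal library. None of 24 measured classical monocyte genes was 2-fold higher, and their median log2 ratios were 0.18 in the ketogenic and 0.33 in the normal library. Ly6c2 had log2 ratios of -0.02 in the ketogenic and -0.57 in the normal library, with 3173 CPM in the highest and 4731 CPM in the lowest of the normal library. Ccr2 had -0.04 in the ketogenic and -0.13 in the normal library, and Plac8 -0.04 in the ketogenic and -0.07 in the normal library. At the other end, H2-Ab1, an MHC class II chain, stood at 26.6 CPM in the highest and 281 CPM in the lowest of the ketogenic library, and at 34.6 CPM in the highest and 654 CPM in the lowest of the normal library. Apoe stood at 561 CPM in the highest and 1307 CPM in the lowest of the ketogenic library, and at 516 CPM in the highest and 1361 CPM in the lowest of the normal library. Ccl5, also a gene of NK and T cells, was at 19.9 CPM in the highest and 664 CPM in the lowest of the ketogenic library, and the 3 measured NK and T cell markers had median log2 ratios of -0.84 in the ketogenic and -1.46 in the normal library. Depth moved as well, with medians of 3079.5 UMIs in the highest and 3926.5 UMIs in the lowest of the ketogenic library, and 3144 UMIs in the highest and 4415 UMIs in the lowest of the normal library. The 15 lower genes became 1 with barcodes thinned to 2000 UMIs before the gate, and 6 without members of 3 or more UMIs of other lineages.

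Between the diets most genes of the members were close. Over 5716 genes with at least 50 UMIs in both libraries together, the median log2 ratio of ketogenic over normal was -0.06, and ratios here have 20 CPM added to each level, which understates the change of low genes. Only 3 genes were at least 2-fold higher (0.0525%): Cxcl2, Id3 and Xcl1, of which Xcl1, a chemokine gene of NK and T cells, owed 77.1% of its ketogenic UMIs to 1 barcode. Neat1, Ccnd2, H2-Eb1 and H2-Aa were the 4 genes at least 2-fold lower (0.07%). At 1.5-fold the counts were 24 higher (0.42%) and 99 lower (1.73%). These shares of all measured genes are the ones to set beside the 1.5-fold counts of every gene list below. With the tumor-marker barcodes included, 98 of 6402 genes were at least 2-fold higher (1.53%) and 11 lower (0.172%), and at 1.5-fold 373 were higher (5.83%) and 249 lower (3.89%). Of the 12 named genes that were then highest, led by the nucleolar gene Npm1, 1 stayed at least 1.5-fold higher without those barcodes, while all 12 of the lowest stayed at least 1.5-fold lower.

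**Figure D3:**
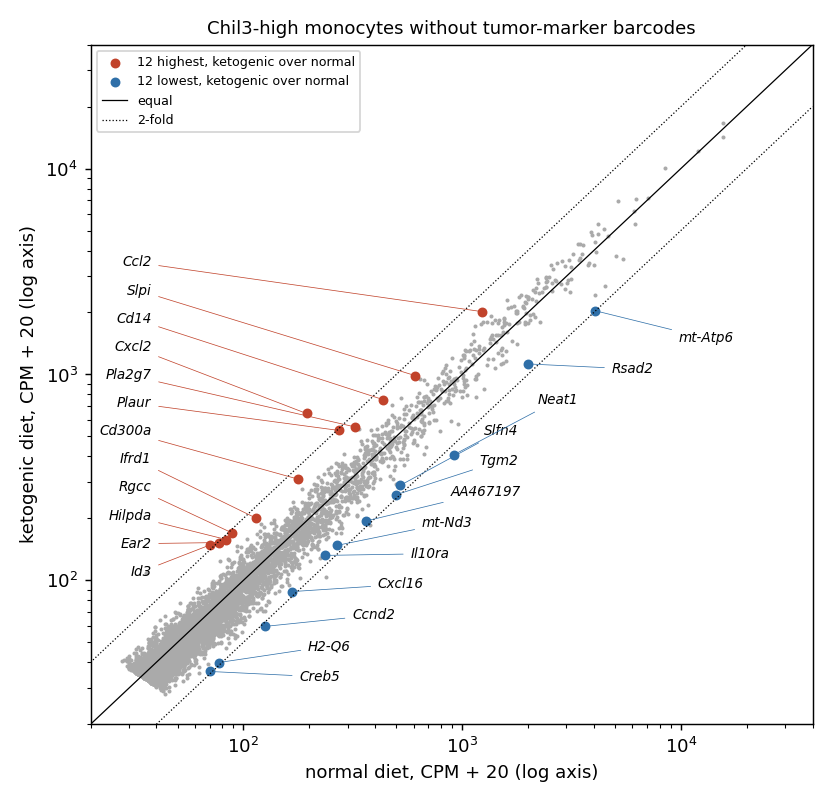
Level of each of the 5716 measured genes in ketogenic (vertical) against normal (horizontal) Chil3-high monocytes without tumor-marker barcodes, in CPM + 20 on log axes, with the named genes in colour, a solid line at equality and dotted lines at 2-fold. Cxcl2, at 626 CPM in ketogenic and 174 CPM in normal members, lies farthest above the line, and Neat1, at 388 CPM in ketogenic and 898 CPM in normal members, lies well below it.

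The gene that stood farthest above was Cxcl2, a chemokine that draws neutrophils through CXCR2. It had 1323 UMIs in ketogenic and 244 in normal members, or 626 CPM (593 to 661) in ketogenic and 174 CPM (153 to 198) in normal members, a ratio of 3.59 (3.13 to 4.13) and a log2 ratio of 1.73 (1.47 over all members). The RNA sat in few cells: the median member had 0 UMIs in both libraries, and the highest had 87 UMIs in the ketogenic and 15 UMIs in the normal library. No single cell made the difference, since the top cell held 6.58% of the ketogenic and 6.15% of the normal Cxcl2 UMIs. With each cell thinned to 2000 UMIs, 22.3% (18.8 to 26.1%) of 534 ketogenic and 12.5% (9.22 to 16.5%) of 343 normal members held a Cxcl2 UMI, with 45 ketogenic and 17 normal cells too shallow to enter. Unthinned shares were 25.7% in the ketogenic and 18.3% in the normal library. At 5 UMIs or more the thinned shares were 7.30% (39 cells) in the ketogenic and 1.46% (5 cells) in the normal library. Of T cells, which should lack the gene, 3.64% in the ketogenic and 3.84% in the normal library held a Cxcl2 UMI after the same thinning. Their median depths were 4305 UMIs in ketogenic and 4336.5 UMIs in normal T cells, against 3361 UMIs in ketogenic and 3595 UMIs in normal members. These T cells were chosen to hold few UMIs of myeloid genes, so their share can understate the free RNA of such a gene.

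Other chemokine genes were mixed. Ccl2, the ligand of CCR2 that recruits further monocytes, stood at 1999 CPM (1939 to 2060) in ketogenic and 1215 CPM (1158 to 1275) in normal members, a log2 ratio of 0.71 (0.54 over all members). With at least 3 Chil3 UMIs it was 0.45, under 1.5-fold. Ccl6, a chemokine of mouse myeloid cells, had a log2 ratio of 0.42, and Ccl7, another CCR2 ligand, of 0.41. Cxcl16, which binds CXCR6 on T and NK cells, stood at 68.2 CPM in ketogenic and 147 CPM in normal members (log2 -0.92), and at -0.29 on the log2 scale when barcodes were thinned to 2000 UMIs before the gate. Of 13 measured chemokine genes 2 were at least 1.5-fold higher and 1 at least 1.5-fold lower, with a median of 0.23 that turned to -0.04 with at least 3 Chil3 UMIs.

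Among receptors and sensors, Cd14, the co-receptor for bacterial lipopolysaccharide, stood at 734 CPM (698 to 771) in ketogenic and 417 CPM (384 to 452) in normal members, a log2 ratio of 0.79 (0.50 over all members, and 0.53 when thinned before the gate). Plaur, the urokinase receptor, stood at 515 CPM (485 to 546) in ketogenic and 254 CPM (228 to 282) in normal members, a log2 ratio of 0.97 (0.72 over all members). Both differences also appeared in the share of cells: after thinning, 59.7% of ketogenic and 37.3% of normal members held a Plaur UMI (73.4% and 52.8% unthinned), and 59.2% of ketogenic and 40.2% of normal members a Cd14 UMI (68.9% and 53.3% unthinned). The T cell shares, with the same limit as for Cxcl2, were 4.34% in the ketogenic and 2.11% in the normal library for Plaur. For Cd14 they were 0.98% in the ketogenic and 3.26% in the normal library. Cd300a, an inhibitory receptor, had a log2 ratio of 0.80 (0.56 over all members). Il10ra, the receptor chain for interleukin 10, lay on the other side at 112 CPM in ketogenic and 217 CPM in normal members (log2 -0.84). The interleukin gene Il1b stood at 1783 CPM in ketogenic and 1285 CPM in normal members, a log2 ratio of 0.47 (0.19 over all members). Of 20 measured pattern recognition genes 1 was at least 1.5-fold higher and none lower (median 0.05), and of 24 inflammatory cytokine and receptor genes none was higher and 1 lower (median -0.13).

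The remaining named genes on the higher side served varied roles. Id3, a dominant-negative partner of helix-loop-helix factors, stood at 128 CPM in ketogenic and 50.1 CPM in normal members, and Ear2, an eosinophil-associated ribonuclease gene with near copies in the mouse genome and so an uncertain count, at 133 CPM in ketogenic and 57.2 CPM in normal members. Ear2 is also among the nonclassical monocyte markers summed above. Rgcc, a cell cycle regulator, had a log2 ratio of 0.94, and Ifrd1, a transcriptional co-regulator, of 0.81. Slpi stood at 968 CPM in ketogenic and 588 CPM in normal members (log2 0.70, 0.43 over all members and 0.34 without members of 2 or more Cxcl10 UMIs). Lipid genes were among them: Hilpda, which blocks fat breakdown at the lipid droplet, stood at 138 CPM in ketogenic and 63.6 CPM in normal members (log2 0.92), Pla2g7, a secreted phospholipase that degrades platelet-activating factor, at 536 CPM in ketogenic and 305 CPM in normal members (log2 0.77), and the droplet coat gene Plin2 at 525 CPM in ketogenic and 317 CPM in normal members (log2 0.69). A single cell held 18.0% of the normal Hilpda UMIs, and without members of 2 or more Cxcl10 UMIs the Hilpda log2 ratio was 0.37. After thinning, 11.6% of ketogenic and 6.41% of normal members held a Hilpda UMI, fewer than the 30.8% of ketogenic and 26.1% of normal T cells. The part of RNA from other cells in the Hilpda difference was not tested. The rest of the lipid list did not follow, since 3 of its 15 measured genes were at least 1.5-fold higher, none was lower and the median was -0.10.

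Interferon genes lay on the lower side. Of 54 measured type I interferon genes 9 were at least 1.5-fold lower and none higher, beside 1.73% lower and 0.42% higher of all measured genes. The list's median log2 ratio was -0.25 against -0.06 for all genes. Rsad2, which encodes viperin, an enzyme that blocks viral replication, stood at 1105 CPM (1061 to 1151) in ketogenic and 1985 CPM (1912 to 2061) in normal members, a ratio of 0.557 (0.527 to 0.588) and a log2 ratio of -0.83 (-0.97 over all members). Ifit1, which binds foreign RNA, stood at 556 CPM in ketogenic and 935 CPM in normal members (log2 -0.73), Oas3, a sensor of double-stranded RNA, at 187.5 CPM in ketogenic and 311 CPM in normal members (log2 -0.67), and Slfn4, a schlafen gene of mouse myeloid cells, at 269 CPM in ketogenic and 501 CPM in normal members (log2 -0.85). Other genes of the list were near equality: Isg15, the ubiquitin-like modifier, stood at 3924 CPM in ketogenic and 4076 CPM in normal members. Ifitm3, which restricts virus entry, had a log2 ratio of 0.25, and Cxcl10 of -0.14. After thinning, 51.9% of ketogenic and 66.8% of normal members held a Rsad2 UMI (58.6% and 73.6% unthinned), against 15.4% of ketogenic and 26.1% of normal T cells, which express interferon genes themselves. Of 25 interferon gamma genes 3 were at least 1.5-fold lower and none higher (median -0.36): Iigp1 (log2 -0.73, but -0.24 over all members) and Gbp4 (log2 -0.71), both GTPases of cell defence, and Irf8, a transcription factor of monocyte fate (log2 -0.67).

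Promoters of 3 of these genes are shown because Cxcl2 was the gene farthest above and because Rsad2 and Ifit1 were the most abundant type I interferon genes among those at least 1.5-fold lower. Each is the 250 bases before the gene start in RefSeq on build GRCm38.p6, read 5′ to 3′ along the gene's strand. Capitals mark a match to a κB-type motif (GGANTTTCC) in Cxcl2 and to an interferon response motif (GAAANNGAA, here on the opposite strand) in Rsad2 and Ifit1.
Cxcl2, chr5:90903649-90903898, plus strand: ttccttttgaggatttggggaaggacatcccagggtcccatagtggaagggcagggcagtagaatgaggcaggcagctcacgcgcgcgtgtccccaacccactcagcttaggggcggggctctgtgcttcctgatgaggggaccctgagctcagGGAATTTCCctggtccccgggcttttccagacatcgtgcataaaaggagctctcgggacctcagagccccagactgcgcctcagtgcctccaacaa
Rsad2, chr12:26456453-26456702, minus strand: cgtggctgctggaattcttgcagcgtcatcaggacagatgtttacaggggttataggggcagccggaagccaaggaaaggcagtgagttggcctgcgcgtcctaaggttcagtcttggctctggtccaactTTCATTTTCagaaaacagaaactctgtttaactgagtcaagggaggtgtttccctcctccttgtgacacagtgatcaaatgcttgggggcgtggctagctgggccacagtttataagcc
Ifit1, chr19:34640639-34640888, plus strand: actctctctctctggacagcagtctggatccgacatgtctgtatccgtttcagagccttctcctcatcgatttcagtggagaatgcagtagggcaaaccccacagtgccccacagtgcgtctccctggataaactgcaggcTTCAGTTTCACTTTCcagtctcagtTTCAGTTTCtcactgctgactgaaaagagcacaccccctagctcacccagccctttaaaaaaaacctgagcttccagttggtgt
Both motifs were searched on both strands, and a match is a description of letters and not of binding. The Cxcl2 match begins 96 bases before the start and the Rsad2 match 119 bases before it. Ifit1 has 3 matches, which begin 109, 103 and 84 bases before the start, and those at 109 and 103 overlap. The interferon response motif was present in 2211 of 27025 promoters (8.18%), in 20 of 43 measured type I interferon genes with an entry (46.5%) and in 4 of 8 of those at least 1.5-fold lower (50.0%). The κB-type motif was present in 337 of 27025 promoters (1.25%), in 2 of the 43 interferon genes (4.65%) and in 1 of the 10 entries for the 12 highest genes, that of Cxcl2, and the interferon response motif was also in 1 of those 10.

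Among MHC class II genes, H2-Ab1 RNA was held by few members and Cd74 RNA by more. After thinning, 8.05% of ketogenic and 15.2% of normal members held an H2-Ab1 UMI. A Cd74 UMI was held by 34.3% of ketogenic and 34.7% of normal members. H2-Eb1 stood at 84.3 CPM in ketogenic and 219.5 CPM in normal members (log2 -1.20), H2-Aa at 166 CPM in ketogenic and 358 CPM in normal members (log2 -1.02) and H2-Ab1 at 170.0 CPM in ketogenic and 342 CPM in normal members (log2 -0.93). A single cell held 34.8% of the ketogenic and 27.4% of the normal H2-Eb1 UMIs. Cd74 (log2 -0.25), H2-DMa (log2 0.01) and H2-DMb1 (log2 -0.05) did not pass 1.5-fold. Of 6 measured genes 3 were at least 1.5-fold lower and none higher (median -0.59), beside 1.73% lower and 0.42% higher of all measured genes. But the median became 0.03 once members with 3 or more UMIs of B cell, tumor, or NK and T cell markers were left out (490 ketogenic and 281 normal members kept).

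Neat1, a nuclear noncoding RNA that builds paraspeckles, stood at 388 CPM (362 to 415) in ketogenic and 898 CPM (849 to 949) in normal members, a ratio of 0.432 (0.395 to 0.472) and a log2 ratio of -1.17 (-1.37 over all members). Malat1, a neighbouring nuclear RNA, had a log2 ratio of 0.02. Xist, the noncoding RNA of X inactivation, stood at 273 CPM in ketogenic and 477 CPM in normal members, a log2 ratio of -0.76 (-1.03 over all members). Ccnd2, the cyclin D2 gene, stood at 39.8 CPM in ketogenic and 106 CPM in normal members, Creb5, a transcription factor gene, at 16.1 CPM in ketogenic and 50.1 CPM in normal members, and AA467197 at 174 CPM in ketogenic and 343 CPM in normal members (log2 -0.90, but -0.35 without members of 2 or more Cxcl10 UMIs). Tgm2, a cross-linking transglutaminase of macrophages, stood at 240.0 CPM in ketogenic and 476 CPM in normal members (log2 -0.93). H2-Q6 (log2 -0.95) belongs to a family of near-identical MHC class I genes, so its count is uncertain.

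Genes of energy metabolism moved little apart from those of the mitochondrial genome. Of 12 measured mitochondrially encoded genes 6 were at least 1.5-fold lower and none higher (median -0.58), beside 1.73% lower and 0.42% higher of all measured genes. The ATP synthase subunit mt-Atp6 stood at 2018 CPM in ketogenic and 4052 CPM in normal members (log2 -0.998), and mt-Nd3, a subunit of complex I, at 128 CPM in ketogenic and 247 CPM in normal members. The share of mitochondrial UMIs, which also serves as a measure of cell quality, had a median of 1.42% per cell in ketogenic and 2.27% in normal members, and its part in these values was not tested. Of 72 respiratory chain genes of the nuclear genome none passed 1.5-fold, 57 lay above 0 and the median was 0.22. Of 20 fatty acid oxidation genes 1 was at least 1.5-fold higher, Etfb, an electron transfer subunit, at 168 CPM in ketogenic and 101 CPM in normal members, and none was lower (median 0.10). Of 10 ketone body genes 1 was at least 1.5-fold lower and none higher (median 0.00): Oxct1, the enzyme that activates ketone bodies for use, at 14.7 CPM in ketogenic and 35.0 CPM in normal members (log2 -0.67, but -0.06 over all members). Of 21 glycolysis genes none passed 1.5-fold (median -0.10). Of 17 hypoxia genes 2 were at least 1.5-fold higher, Hilpda and Plin2, and 2 lower, the growth factor gene Vegfa (log2 -0.82) and Pfkfb3, a regulator of glycolysis (log2 -0.63). Of 24 classical monocyte genes none passed 1.5-fold in either direction (median -0.16), and neither did any of the 6 measured S phase and mitosis genes.

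The same diet ratios were also computed in other cells, and they differed from gene to gene. Neat1 had log2 ratios of -1.27 in interferon-type monocytes, -1.01 in C1q macrophages, -1.05 in all other barcodes together (every one outside the Chil3-high monocytes that passed the quality limits, those 2 populations included) and -1.24 in barcodes of at most 100 UMIs, which hold free RNA. Rsad2 had -0.93, -0.90, -0.997 and -0.996 in the same 4 sets, and mt-Atp6 had -0.90, -0.93, -0.78 and -1.10. Type I interferon medians were -0.24 in interferon-type monocytes, -0.43 in C1q macrophages, -0.47 in all other barcodes and -0.56 in the barcodes of at most 100 UMIs. Cxcl2 had log2 ratios of 1.71 in interferon-type monocytes and 1.78 in C1q macrophages, but 0.19 in all other barcodes and -0.33 in those of at most 100 UMIs. Cd14 had 1.15 in interferon-type monocytes and 0.59 in C1q macrophages, against 0.16 in all other barcodes, and Plaur 1.11 and 0.98 against 0.54. Cxcl16, lower in the members, had 0.03 in interferon-type monocytes, -0.07 in C1q macrophages and -1.04 in all other barcodes. Ccl2 had 0.19 in interferon-type monocytes, 0.74 in C1q macrophages and -0.15 in all other barcodes. With 1 library per diet the difference between populations in these ratios could not be tested.

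**Figure D4:**
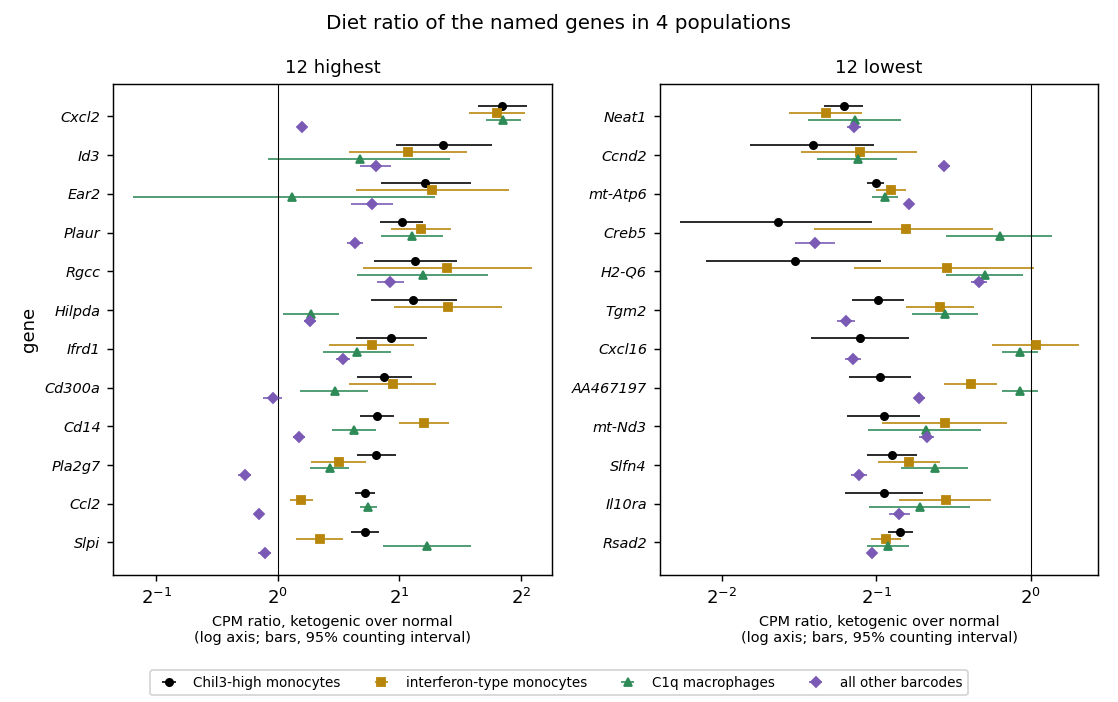
Ratio of ketogenic over normal CPM (log axis) for the named genes in the Chil3-high monocytes, the interferon-type monocytes, the C1q macrophages and all other barcodes, with bars for the 95% counting interval. Cxcl2 lies at 3.59 in the Chil3-high monocytes with the interferon-type monocytes close by at 3.49, while Neat1 lies below 1 in all 4 populations.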

How the data were processed

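The authors deposited raw UMI counts per gene and barcode for 2 unfiltered libraries, 1 per diet. Version 4 of Cell Ranger made them per the file headers, whereas the submitters' processing notes give 6.0.0. The notes list Seurat 3.2.0 as a further tool, and GRCm38 with mm10 as builds. The ketogenic matrix lists 813678 barcodes and 42710007 UMIs, and the normal matrix 827272 barcodes and 37575996 UMIs, over 32285 genes. Barcodes of at most 100 UMIs, taken as free RNA, hold 6.09% of the ketogenic and 4.33% of the normal UMIs.

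From these counts, barcodes were chosen by the limits given in the report, their counts were summed per library and population, and sums were divided by the total to give CPM. Exact Poisson intervals were set on sums, conditional exact intervals on ratios and Clopper-Pearson intervals on shares, all at 95%. They cover counting error only, because there is 1 library per diet. Genes with at least 50 UMIs over the groups compared were kept (in each library, where populations or members of 1 library were compared), gate genes left out, and 20 CPM was added before log2 ratios. The named genes are the 12 highest and 12 lowest between diets among genes where no cell held over 20% of a library's counts and at least 10% of members of 1 library had a UMI, the 4 largest changes of each list, and the 10 highest and lowest against each population, with a few label and interferon genes given in any case. T cells set beside the members had at least 3 UMIs of CD3 genes and few of myeloid genes, so their shares can understate free RNA of myeloid genes. The members and gene lists were chosen with earlier results of these data known, and leaving out tumor-marker barcodes was chosen after seeing the data. No doublet caller was run. The computation of the ratios was run on simulated Poisson counts with known folds. That simulation had no variation between cells or libraries and no free RNA, so it checks the arithmetic only. Computation used scipy 1.17.1, numpy 2.4.6 and pandas 2.3.3 under Python 3.11.15, and figures used matplotlib 3.10.9.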

Additional observations from a re-analysis of the deposited data

How the results depend on the processing

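No paired analysis was possible because each diet has 1 library, and for the same reason no replicate could be left out. Without tumor-marker barcodes, 677 of 743 values of named genes moved by no more than the counting error of the reported value. Settings that changed only the UMIs a measured gene needed could not move a named gene's ratio, and they count among the 743. Of 527 list medians, 518 moved by no more than the median counting error of the list's single genes. That measure is not the error of the median itself. None of the 12 highest or 12 lowest genes changed sign. The label marker Ly6c2 ranged from -0.34 to 0.02 and Vcan from -0.11 to 0.14. Cxcl2 ranged from 1.19 to 1.96 on the log2 scale, Rsad2 from -1.06 to -0.76, Neat1 from -1.31 to -1.03, Hilpda from 0.37 to 1.24, the type I interferon median from -0.32 to -0.17 and the mitochondrially encoded median from -0.69 to -0.44. The log2 ratio of the members' share was 0.65, and 0.42 with at least 3 Chil3 UMIs, 1.05 with at least 10, 0.95 with barcodes thinned to 2000 UMIs and 0.85 without members of 2 or more Cxcl10 UMIs. Without tumor-marker barcodes it was 0.62, and 0.39, 1.02, 0.95 and 0.85 under the same settings.

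Counts of genes moved most. Over all members, 98 were at least 2-fold higher, and 32 with at least 3 Chil3 UMIs, 54 with at least 10, 3 when thinned, 356 with 1 CPM added, 10 with 100 CPM added, 4 by the mean over cells, 172 with free RNA subtracted, 2 without members carrying other-lineage UMIs, 5 without the 5% of highest UMIs, 10 without Cxcl10-positive members, 48 with at least 200 UMIs and 3 without tumor-marker barcodes. The 11 lower genes became 7 when thinned, 95 with 1 CPM, 2 with 100 CPM, 3 by the mean over cells, 17 with free RNA subtracted, 4 without other-lineage UMIs, 2 without the highest 5% and 4 without tumor-marker barcodes. Without tumor-marker barcodes, the 3 higher genes became 6 with at least 3 Chil3 UMIs, 19 with 1 CPM, 1 with 100 CPM, 5 with free RNA subtracted, 5 without the highest 5% and 8 without Cxcl10-positive members. The 4 lower genes became 8 with at least 10 Chil3 UMIs, 7 when thinned, 50 with 1 CPM, 1 with 100 CPM, 2 without the highest 5% and 8 without Cxcl10-positive members.

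Over all members the type I interferon median of -0.43 became -0.25 with at least 10 Chil3 UMIs, -0.19 when thinned, -0.18 without other-lineage UMIs, and -0.25 without the highest 5% or without tumor-marker barcodes. The interferon gamma median of -0.45 became -0.23 without Cxcl10-positive members. The median of MHC class II genes turned to 0.0264 without other-lineage UMIs, 0.0316 without the highest 5%, and 0.26 without Cxcl10-positive members. The median of MHC class II genes without tumor-marker barcodes turned to 0.0264, 0.0316 and 0.30 under those settings, and the chemokine median to -0.0425 with at least 3 Chil3 UMIs. The Slc25a4 log2 ratio over all members turned to -0.0272 when thinned, and the Hspd1 log2 ratio to -0.0451 without other-lineage UMIs.

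Against interferon-type monocytes the 4 higher genes became 8 with at least 10 Chil3 UMIs, 7 when thinned, 27 with 1 CPM, 0 with 100 CPM, 7 by the mean over cells, 10 with free RNA subtracted, 9 without the highest 5% and 30 without Cxcl10-positive members, and the 21 lower genes 8 with 100 CPM and 107 without Cxcl10-positive members. Against C1q macrophages the 129 higher genes became 237 with 1 CPM and 39 with 100 CPM, and the 142 lower genes 315 with 1 CPM, 51 with 100 CPM and 77 with at least 200 UMIs. Between the members of highest and lowest Chil3 share the 0 higher genes became 1 with 1 CPM and 1 with free RNA subtracted, and the 15 lower genes 9 with at least 10 Chil3 UMIs, 1 when thinned, 23 with 1 CPM, 7 with 100 CPM, 6 without other-lineage UMIs, 6 without Cxcl10-positive members and 4 with at least 200 UMIs. The cause of these moves was not tested. Counts against Arg1 macrophages and neutrophils, with 45 and 113 ketogenic and 80 and 127 normal barcodes, are not given.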

Other observations

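Genes of other pathways add to the picture of the members, given as values. Ribosomal protein genes had a median log2 ratio of 0.16 in members without tumor-marker barcodes, with 65 of 81 measured genes above 0 and Rpl38 at 1709 CPM in ketogenic and 1126 CPM in normal members. In all other barcodes the same list had a median of 0.30, and in barcodes of at most 100 UMIs 0.48. Of 12 measured heat shock genes 1 was at least 1.5-fold higher, Hspa1b, at 44.5 CPM in ketogenic and 21.5 CPM in normal members, with 29.8% of its ketogenic and 13.3% of its normal UMIs in 1 cell. Of 22 measured NF-κB feedback genes none passed 1.5-fold in either direction, and the largest difference was that of Nfkb1 at 139 CPM in ketogenic and 219 CPM in normal members. Of 13 measured sterol and fatty acid synthesis genes none lay above 0 (median -0.22), and none passed 1.5-fold. Of 8 measured Fc receptor genes none passed 1.5-fold, and the list's median was -0.05 in the members and -0.61 in all other barcodes.

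Of 35 S phase and mitosis genes, 6 had enough counts without tumor-marker barcodes, with a median of 0.10. Over all members 24 had enough counts, 17 were at least 1.5-fold higher and the median was 0.79.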
